A study of Mus musculus with 4 samples.

Results

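The genes described here are the transcription factors of the blood stem cell heptad and the proteins they assemble with, namely *Tal1*, *Lyl1*, *Lmo2*, *Gata2*, *Erg* and *Fli1*, the bridging factor *Ldb1*, and the E proteins *Tcf3*, *Tcf4* and *Tcf12*. They were chosen by symbol from a list of 10 names, and all 10 were among the 12067 genes of the count table. Transcripts were measured by Quant-seq, which reads each polyadenylated transcript near its 3′ end, in donor-derived myeloid progenitor cells (KL cells, Lin- cKit+ Sca-1-), sorted as CD45.2+ cells from the bone marrow of *Ptprca* recipients. There were 4 libraries, 2 per genotype. The BcorΔE9-10 donors carried *scl*-Cre-ERT and a floxed *Bcor* allele on their single X chromosome (*Bcor*fl/y), so that tamoxifen removed exons 9 to 10 in haematopoietic stem cells. The BcorWT donors carried the same floxed allele without Cre. The methods give a total of 5 mg tamoxifen at 3 to 6 months of age and male animals for molecular work, and for transplants 500000 marrow cells into female recipients of a congenic CD45.1 strain irradiated with 5.5 Gy. By the series' design, the graft was unsorted marrow and the KL cells were taken 20 weeks later. The sources used here do not say whether a library held 1 recipient or a pool, so p-values measure the spread between these libraries.

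The Cre transgene is driven by regulatory sequence of *Tal1* itself, a member of the group described here, and it was present only in BcorΔE9-10 donors. Cre and the loss of *Bcor* exons therefore cannot be told apart in this comparison. Each group's cells were sorted, but the RNA is bulk, so a larger share of cells that express a factor and more RNA per cell cannot be told apart either.

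Tal1 (also called SCL) and Lyl1 are closely related basic helix-loop-helix proteins that bind DNA as heterodimers with a widely expressed E protein, the product of *Tcf3*, *Tcf4* or *Tcf12*. Lmo2 has no DNA-binding activity of its own and joins the heterodimer, through Ldb1, to a GATA factor, which is Gata2 in stem and early progenitor cells and Gata1 in erythroid cells and megakaryocytes. The ETS factors Erg and Fli1 and the Runt factor Runx1 occupy many of the same regulatory elements, and the 7 proteins Tal1, Lyl1, Lmo2, Gata2, Runx1, Erg and Fli1 are together known as the heptad. The comparison asks whether transcripts of these stem cell factors differ between myeloid progenitors with and without full-length Bcor.

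The promoter of *Tal1*, the factor with the largest difference, and that of *Lyl1*, its closest relative, are shown because the factors of this group bind 3 kinds of short motif and regulate one another. Sequences are from RefSeq on GRCm38.p6, plus strand, from 250 bases before the annotated start to 30 bases after it. Capitals mark the E-box CANNTG, the GATA motif GATAA and the ETS motif CGGAA, each sought on both strands.
Tal1, chr4:115056176-115056455: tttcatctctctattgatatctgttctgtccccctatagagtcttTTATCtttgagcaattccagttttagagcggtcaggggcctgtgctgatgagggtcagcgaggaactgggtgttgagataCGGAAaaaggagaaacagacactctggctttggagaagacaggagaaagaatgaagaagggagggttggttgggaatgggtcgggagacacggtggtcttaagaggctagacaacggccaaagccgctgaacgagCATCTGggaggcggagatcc
Lyl1, chr8:84701207-84701486: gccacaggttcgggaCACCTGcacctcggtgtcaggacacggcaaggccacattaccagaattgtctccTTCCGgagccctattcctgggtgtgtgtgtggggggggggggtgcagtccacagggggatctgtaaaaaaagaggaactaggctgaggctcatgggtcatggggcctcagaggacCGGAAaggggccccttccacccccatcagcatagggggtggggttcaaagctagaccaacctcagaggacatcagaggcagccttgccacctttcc

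No marked match overlapped another. The *Tal1* window held 1 match of each kind, the GATA match at base -205, the ETS match at base -125 and the E-box at base 11, all counted from the start. The *Lyl1* window held 1 E-box and 2 ETS matches and no GATAA. A second RefSeq start of *Tal1*, with a window from 115057561 to 115057860, held none of the 3. Such short motifs are common. Of the 32851 promoter windows of 300 bases in the table, 72.3% held CANNTG, 25.4% GATAA and 29.9% CGGAA. Windows of 7 of the 10 genes were used, as none was found for *Lmo2* and *Fli1*, and *Tcf4* was left out. A GATAA match was present in at least 1 window of 3 of these 7 genes (*Tal1*, *Erg* and *Ldb1*). The matches are descriptions of these windows and were not related to binding.

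Total counts ranged from 3825289.5 to 6253100.5 per library, and 3 counts, the limit that a count of 0 allows, corresponded to between 0.480 and 0.784 CPM (counts scaled to library size with edgeR's TMM factors), the unit of all levels below. *Bcor* was at 18.4 to 19.2 CPM in BcorΔE9-10 and 14.9 to 16.9 CPM in BcorWT, which does not check the genotype labels because the reads come from the 3′ end, beyond the deleted exons. Among the markers of the sort, *Kit* was at 29.4 to 61.9 CPM and *Mpo*, the myeloperoxidase of granulocyte-monocyte progenitors, at 4284 to 6889 CPM, whereas *Ly6a*, which encodes Sca-1, was at 0 to 3.80 CPM. The lineage gate of the study excludes CD11b+ and Gr-1+ cells. *Itgam*, which encodes CD11b, was nevertheless at 73.7 to 158.9 CPM, above *Kit* in every library. *Ly6g*, of the Gr-1 antigen, was at 39.6 to 174.3 CPM. The part of mature myeloid cells in these libraries was not tested. All 10 KL cell markers were in the table, 4 higher and 6 lower in BcorΔE9-10, and 0 had an unadjusted p under 0.05. The BcorWT libraries stood apart from each other. The rRNA-like transcript *Gm42418* took 27.9% of the counts in BcorWT replicate 1 and 1.43% in BcorWT replicate 2, and the correlation of log2 CPM across genes was 0.893 between them against 0.947 between the BcorΔE9-10 libraries. Without BcorWT replicate 1, 25% of all genes had an unadjusted p under 0.05, against 4.42% with all libraries, so ranges over the 4 fits that each leave out 1 library are given for the 10 genes and for most others named.

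The 10 genes together gave 2758 and 3109 counts in BcorΔE9-10 replicates 1 and 2 and 1863 and 2617 counts in BcorWT replicates 1 and 2. Their summed level was 509.7 and 506.8 CPM against 544.1 and 492.5 CPM, so the groups overlapped and the total was nearly the same in each library. The order of the levels, averaged over the 4 libraries, ran from *Lyl1* (142 ± 51.1 CPM, SD, n = 4) through *Fli1* (98.4 ± 20.9), *Lmo2* (79.8 ± 16.4), *Tcf4* (42.4 ± 11.9), *Tcf12* (39.9 ± 4.54), *Gata2* (27.5 ± 10.3), *Tcf3* (25.6 ± 8.44), *Ldb1* (24.8 ± 6.10) and *Tal1* (18.9 ± 8.53) to *Erg* (13.9 ± 3.10). These are 3′ tag counts, in which a transcript is counted once whatever its length, so they were not divided by length. Of the 9 pairs of neighbours in this order, 8 had ranges that overlapped. The exception was the step from *Lmo2* to *Tcf4*, which separated *Lyl1*, *Fli1* and *Lmo2* from the other genes in all 4 libraries.

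**Figure D1:**
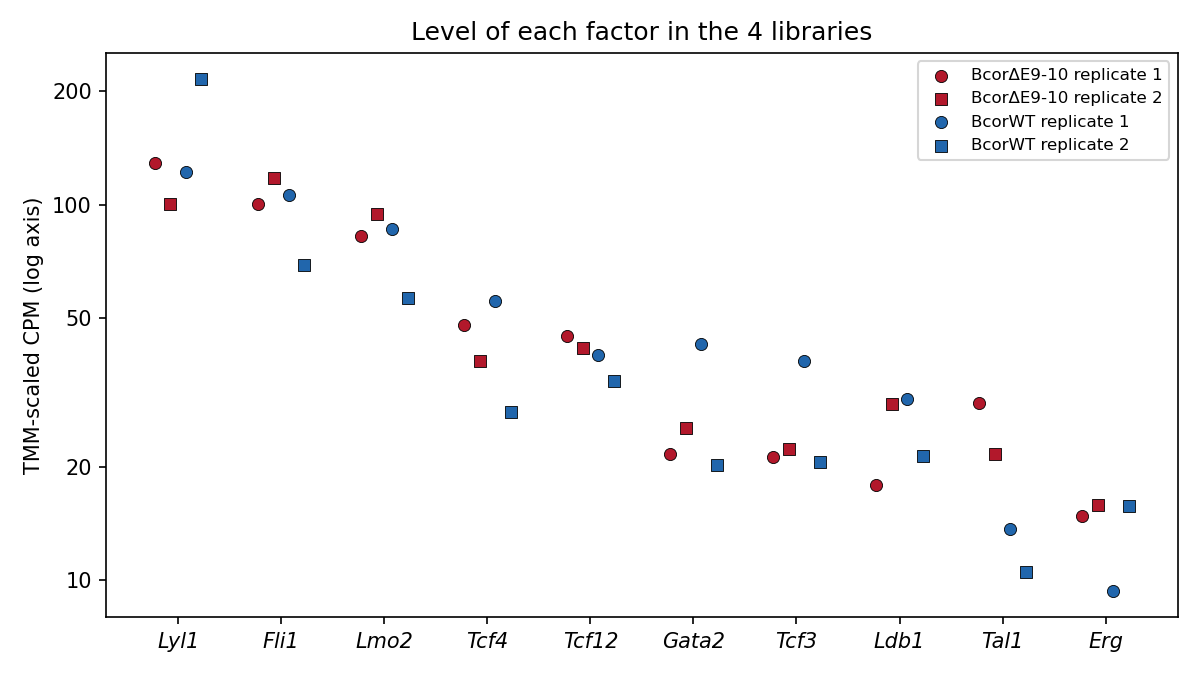
Level of each of the 10 genes in TMM-scaled CPM on a log axis, with 1 point per library (red, BcorΔE9-10; blue, BcorWT; circles, replicate 1; squares, replicate 2). *Tal1* was at 21.7 and 29.6 CPM in BcorΔE9-10 and at 10.5 and 13.7 CPM in BcorWT, while 8 of the other 9 genes overlap between genotypes.

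Between genotypes, 6 of the 10 factors had a positive and 4 a negative value in BcorΔE9-10 against BcorWT, with a median log2 fold change of 0.14, beside 47.7% of all genes higher and a median of -0.03 over all genes. The direction of the factors' median rested on 1 library, as it was -0.027 without BcorWT replicate 2 and 0.27 without BcorWT replicate 1. At an adjusted p under 0.05 in edgeR's quasi-likelihood test, with Benjamini-Hochberg adjustment over all 12067 genes, 0 of the 10 passed, where 0.0166% of all genes (2 genes) passed. limma-voom and DESeq2 also called 0 of the 10. At an unadjusted p under 0.05 there was 1 gene, *Tal1*, with each of these tools, against a background of 4.42% of all genes (1.34% higher and 3.07% lower). The values of the genotypes did not overlap for 2 of the 10 genes, *Tal1* and *Tcf12*, both higher in BcorΔE9-10, against 33.9% of all genes (16.8% higher and 17.1% lower), so the count was near the background.

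*Tal1* lies on chromosome 4 of GRCm38 from 115056426 to 115071755, with no other annotated gene across its span. It had 160 and 133 counts in BcorΔE9-10 and 47 and 56 counts in BcorWT. In scaled levels these were 29.6 CPM (exact 95% Poisson interval 25.2 to 34.5) and 21.7 CPM (18.2 to 25.7) in BcorΔE9-10, against 13.7 CPM (10.1 to 18.3) and 10.5 CPM (7.96 to 13.7) in BcorWT. Both BcorΔE9-10 libraries were thus above both BcorWT libraries, and the lower BcorΔE9-10 value was above the higher BcorWT value by 0.66 on the log2 scale. The group means were 25.6 ± 5.58 CPM and 12.1 ± 2.25 CPM (SD, n = 2). The fitted log2 fold change was 1.08 (standard error 0.38, 95% interval 0.20 to 1.96), 2.12-fold in linear terms. Over the 4 fits without 1 of the libraries it ranged from 0.84 to 1.29. The unadjusted p was 0.0220 in edgeR, and the adjusted p over all genes was 0.945 (from 0.0763 to 1.00 over the alternatives). The difference therefore did not pass the test. *Tal1* was the only one of the 10 genes for which the distance between the BcorWT libraries (0.38 on the log2 scale) was smaller than the log2 fold change between genotypes.

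*Lyl1* (chromosome 8, 84701457 to 84704715) takes the place of Tal1 in the complex in many stem and progenitor cells, and its mean level was the highest of the 10, although *Fli1* was above it in BcorΔE9-10 replicate 2. It had 698 and 615 counts in BcorΔE9-10 and 418 and 1150 counts in BcorWT, or 129 and 100 CPM against 122 and 216 CPM. The level in BcorWT replicate 2 stood far above the other 3 libraries, among which the genotypes overlapped. In the fit the log2 fold change was -0.56 (standard error 0.38, 95% interval -1.44 to 0.31), and it ranged from -0.92 without BcorWT replicate 1 to -0.09 without BcorWT replicate 2. *Lyl1* lies within the span of *Nfix* on the opposite strand, with which it shares 4 exonic bases.

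Because *Tal1* and *Lyl1* compete for the same partners, their counts were also set against each other within each library, which needs no scaling between libraries. *Tal1* made up 18.6% (95% Wilson interval 16.2 to 21.4%) and 17.8% (15.2 to 20.7%) of the summed *Tal1* and *Lyl1* counts in BcorΔE9-10. In BcorWT it made up 10.1% (7.69 to 13.2%) and 4.64% (3.59 to 5.98%). The shares of the genotypes did not overlap, and neither did their counting intervals. The means were 18.2 ± 0.613% and 7.38 ± 3.86% (SD, n = 2), with a two-sided exact permutation p of 0.333, the smallest that 2 libraries against 2 can give. The BcorΔE9-10 libraries were within 1 percentage point of each other, and the BcorWT libraries differed by more than 2-fold. Of the counts of all 10 genes, *Tal1* held 5.80 and 4.28% in BcorΔE9-10 and 2.52 and 2.14% in BcorWT.

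**Figure D2:**
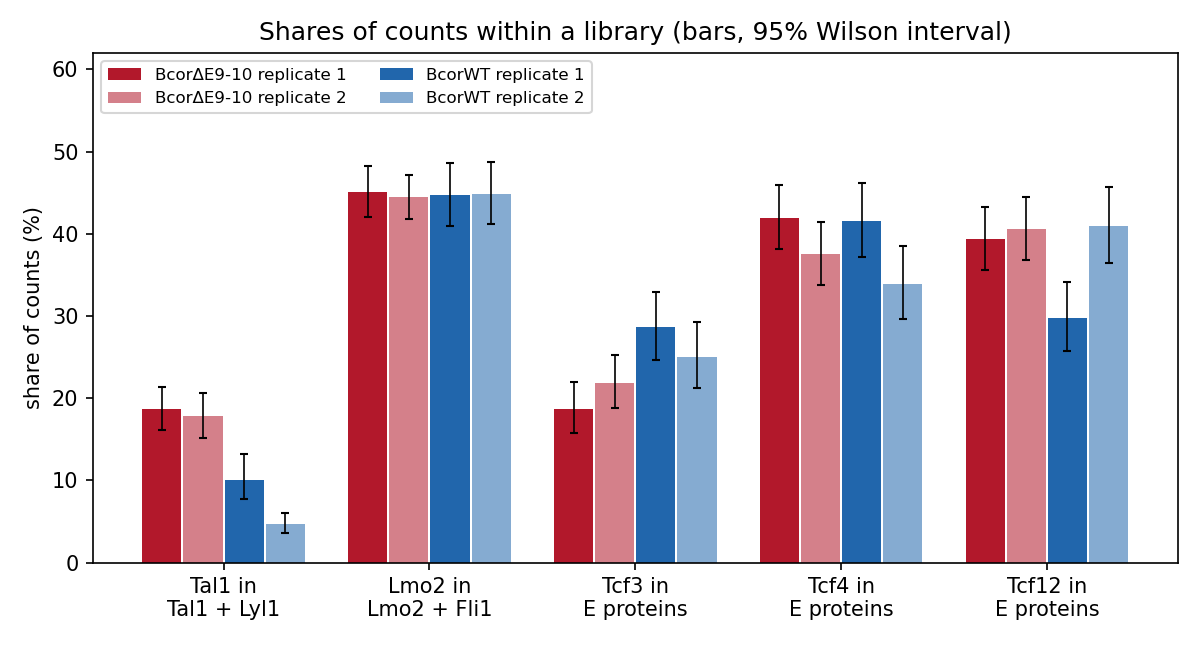
Share of counts within each library, in percent, of *Tal1* in *Tal1* plus *Lyl1*, of *Lmo2* in *Lmo2* plus *Fli1*, and of each E protein gene in the sum of the 3 (bars, 1 per library; error bars, 95% Wilson interval). *Tal1* made up 17.8 to 18.6% in BcorΔE9-10 and 4.64 to 10.1% in BcorWT, while the *Lmo2* share was between 44.4 and 45.1% in all 4 libraries.

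The bridging factors join the heterodimer to the GATA factor. *Lmo2* (chromosome 2, 103957986 to 103981878), a LIM-only protein first known as a T cell oncogene, had 447 and 578 counts in BcorΔE9-10 and 295 and 299 in BcorWT, or 82.6 and 94.2 CPM against 86.1 and 56.3 CPM. BcorWT replicate 1 lay between the BcorΔE9-10 libraries, and only BcorWT replicate 2 was below them. Its fitted log2 fold change was 0.31 (standard error 0.34, 95% interval -0.47 to 1.10), and it was 0.04 without BcorWT replicate 2 and 0.65 without BcorWT replicate 1. *Ldb1* (chromosome 19, 46031570 to 46045214), the dimerising adaptor that Lmo2 binds, had 97 and 181 counts against 104 and 114, or 17.9 and 29.5 CPM against 30.4 and 21.5 CPM. Its genotypes overlapped, and it was the gene with the largest distance between the BcorΔE9-10 libraries, 0.72 on the log2 scale. The fitted log2 fold change was -0.12 (standard error 0.39, 95% interval -1.02 to 0.78). *Ldb1* shares 177 exonic bases with *Pprc1* on the opposite strand, at its own 5′ end and hence away from the end that Quant-seq reads.

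*Gata2* (chromosome 6, 88193891 to 88207032), the zinc finger factor of the complex in stem cells, had 117 and 156 counts in BcorΔE9-10 and 146 and 108 in BcorWT. Its levels were 21.6 and 25.4 CPM against 42.6 and 20.3 CPM. BcorWT replicate 1 was above the other 3 libraries, and the distance between the BcorWT libraries, 1.07 on the log2 scale, was the largest of the group. In the fit the log2 fold change was -0.41 (standard error 0.42, 95% interval -1.37 to 0.55), and it was 0.21 without BcorWT replicate 1 and -0.86 without BcorWT replicate 2, so its direction rested on 1 library. *Gata2* is also expressed in mast cells and basophils, and the markers of those cells were lower in BcorΔE9-10. Of 10 listed, 7 were in the table, all 7 with a negative log2 fold change, from *Prss34* at -2.10 to *Fcer1a* at -0.36. In edgeR 3 had an unadjusted p under 0.05 (*Cpa3*, *Mcpt8* and *Prss34*), beside 3.07% of all genes in that direction, and 0 passed adjustment. limma-voom called 0 of those named here. DESeq2 called *Mcpt8* (adjusted p = 0.000704) and *Prss34* (0.000623), beside 43 of all genes. With 1 library left out the log2 fold change ranged from -2.16 to -1.77 for *Mcpt8*, -2.44 to -1.66 for *Prss34* and -1.21 to -0.92 for *Cpa3*. The summed level of the list was 412.1 to 529.6 CPM in BcorΔE9-10 and 744.4 to 1073 CPM in BcorWT. *Cma1*, *Tpsb2* and *Gzmb* were not in the table. The part of these cells in the *Gata2* values was not tested.

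The ETS factors of the group are *Fli1* and *Erg*. *Fli1* (chromosome 9, 32422204 to 32542861), which is expressed in stem cells and megakaryocytes, had 544 and 723 counts in BcorΔE9-10 and 364 and 367 in BcorWT, or 100.5 and 117.9 CPM against 106.3 and 69.1 CPM. As for *Lmo2*, BcorWT replicate 1 lay between the BcorΔE9-10 libraries and BcorWT replicate 2 below them. Its fitted log2 fold change was 0.32 (standard error 0.34, 95% interval -0.48 to 1.11, from 0.04 to 0.66 with 1 library left out). *Erg* (chromosome 16, 95359169 to 95586593), required for the maintenance of stem cells, had the lowest level, with 80 and 97 counts against 32 and 84. Its levels were 14.8 and 15.8 CPM against 9.34 CPM (exact 95% Poisson interval 6.39 to 13.2) and 15.8 CPM, so that here BcorWT replicate 1 was low and BcorWT replicate 2 was level with BcorΔE9-10. The fitted log2 fold change was 0.27 (standard error 0.42, 95% interval -0.70 to 1.24), and it was -0.05 without BcorWT replicate 1.

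*Lmo2* and *Fli1* had almost the same pattern over the libraries, an observation made after their values were seen. *Lmo2* made up 45.1 and 44.4% of their summed counts in BcorΔE9-10 and 44.8 and 44.9% in BcorWT, with 95% Wilson intervals between 41.0 and 48.7%. Each share lay within the counting interval of every other. *Erg* in the sum of *Erg* and *Fli1* varied more, at 12.8 and 11.8% in BcorΔE9-10 and 8.08% (5.78 to 11.2%) and 18.6% (15.3 to 22.5%) in BcorWT.

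The E proteins are the shared dimer partners of Tal1 and Lyl1. *Tcf3* (chromosome 10, 80409514 to 80433647), which encodes E12 and E47, had 115 and 137 counts in BcorΔE9-10 and 131 and 110 in BcorWT, or 21.3 and 22.3 CPM against 38.3 and 20.7 CPM. BcorWT replicate 1 stood above the other 3, which were within 2 CPM of each other. In the fit the log2 fold change was -0.43 (standard error 0.39, 95% interval -1.32 to 0.47) and was 0.07 without BcorWT replicate 1. *Tcf4* (chromosome 18, 69343356 to 69689079), which encodes E2-2, the master factor of plasmacytoid dendritic cells, had 258 and 235 counts against 190 and 149. Its levels of 47.7 and 38.3 CPM in BcorΔE9-10 lay between the 55.5 and 28.0 CPM of BcorWT. Its fitted log2 fold change was 0.05 (standard error 0.40, 95% interval -0.87 to 0.97). Of 8 plasmacytoid dendritic cell markers only *Irf8*, which granulocyte-monocyte progenitors also express, and *Bst2* were in the table, whereas *Siglech* and *Ccr9* were not, and the lineage gate of the study excludes B220+ cells, which these are. *Irf8* was at 188.3 to 243.8 CPM in BcorΔE9-10 and 274.4 to 280.4 CPM in BcorWT. *Bst2* was at 14.0 to 15.5 CPM and 17.8 to 75.8 CPM, and its log2 value of -1.67 was -0.27 without BcorWT replicate 2. *Tcf12* (chromosome 9, 71842688 to 72111871), which encodes HEB, had 242 and 254 counts against 136 and 180, or 44.7 and 41.4 CPM against 39.7 and 33.9 CPM. It was the other gene without overlap, although the nearest values of the genotypes were only 0.06 apart on the log2 scale. Its log2 fold change was 0.23 (standard error 0.31, 95% interval -0.49 to 0.94, from 0.12 to 0.34 with 1 library left out).

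The E protein counts summed to 113.7 and 102.0 CPM in BcorΔE9-10 and 133.5 and 82.6 CPM in BcorWT, so the BcorWT libraries lay on both sides. Within the sum, *Tcf3* made up 18.7% (95% Wilson interval 15.8 to 22%) and 21.9% (18.8 to 25.3%) in BcorΔE9-10 and 28.7% (24.7 to 33.0%) and 25.1% (21.2 to 29.3%) in BcorWT. The *Tcf3* share was lower in both BcorΔE9-10 libraries, but the counting intervals of both overlapped that of BcorWT replicate 2, and the two-sided exact permutation p was 0.333, again the smallest possible. *Tcf4* made up 42.0 and 37.5% against 41.6 and 33.9%, and *Tcf12* 39.3 and 40.6% against 29.8 and 41.0%, with overlap for both.

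**Figure D3:**
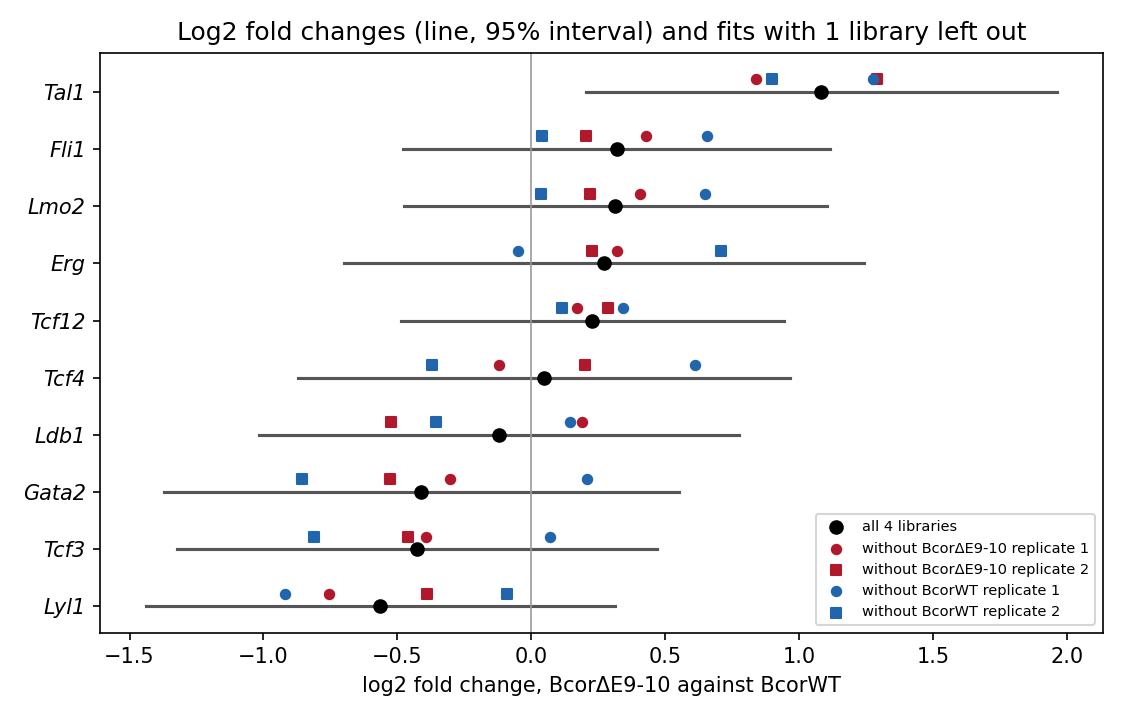
Log2 fold change of each of the 10 genes, BcorΔE9-10 against BcorWT, from edgeR (black points; lines, 95% interval), with the 4 fits that leave out 1 library as coloured symbols above each line. Only the *Tal1* interval, 0.20 to 1.96, lies to 1 side of 0, and the coloured symbols of *Gata2*, *Erg*, *Ldb1*, *Tcf3* and *Tcf4* fall on both sides of 0.

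For 9 of the 10 genes the distance between the BcorWT libraries was larger than the fold change between genotypes, against 69.9% of all genes. The median distance between the BcorWT libraries was 0.69 on the log2 scale over the 10 genes and 0.59 over all genes with counts in every library. Between the BcorΔE9-10 libraries it was 0.23 and 0.32. In 8 of the 10 genes BcorWT replicate 1 was above BcorWT replicate 2, against 51.8% of all genes, the exceptions being *Lyl1* and *Erg*. The sign of the log2 fold change held in every fit with 1 library left out for 5 genes, *Tal1*, *Lmo2*, *Lyl1*, *Fli1* and *Tcf12*.

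Other proteins of the complex and its relatives were read from lists of related genes. Of 17 complex partners, 15 were in the table, 10 higher and 5 lower in BcorΔE9-10 with a median log2 fold change of 0.14 (0.11 to 0.32 with 1 library left out), and 0 reached even an unadjusted p under 0.05. The 7th factor of the heptad, *Runx1*, was at 73.2 and 79.7 CPM in BcorΔE9-10 and 80.9 and 57.6 CPM in BcorWT (log2 difference 0.14, standard error 0.33, from -0.082 to 0.40 with 1 library left out), with overlap between genotypes. The highest of the partners was *Zfpm1*, which encodes the GATA cofactor FOG1, with 60 and 45 counts against 17 and 14 (log2 difference 1.30, standard error 0.57, 95% interval -0.02 to 2.61, from 0.88 to 1.79 with 1 library left out). The lowest was *Ssbp2*, a partner of Ldb1, with 53 and 48 counts against 51 and 66 (log2 difference -0.63, standard error 0.42). *Gata1*, the erythroid GATA factor, had few counts, 22 and 10 against 5 and 22.

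The Id proteins bind E proteins and keep them off DNA. Of 4, *Id1*, *Id2* and *Id3* were in the table, and *Id2* alone had an unadjusted p under 0.05, beside 4.42% of all genes. It had 471 and 725 counts in BcorΔE9-10 and 198 and 300 in BcorWT, without overlap in scaled level at 87.0 and 118 CPM against 57.8 and 56.5 CPM. Its log2 fold change was 0.84 (standard error 0.32, 95% interval 0.10 to 1.59, edgeR adjusted p = 0.945 over all genes), and 0.61 to 1.05 with 1 library left out. *Id3* was at -0.63 (standard error 0.61). Of the other GATA and LMO factors 2 of 6 were in the table. *Lmo1*, a close relative of Lmo2, had 15 and 42 counts against 33 and 125 (log2 difference -1.79, -2.58 to -0.99 with 1 library left out, standard error 0.62, unadjusted p = 0.0209 and adjusted p = 0.945 in edgeR), and *Gata3* had 13 and 13 against 22 and 6 (log2 difference -0.69, standard error 0.88). Of 16 other ETS factors 14 were in the table, with a median of 0.15 (0.042 to 0.27 with 1 library left out). *Etv6*, required for stem cell survival in the marrow, was the highest at 0.52 (standard error 0.32), and *Elk1* the lowest at -1.86 (-2.42 to -0.90 with 1 library left out, standard error 0.55, unadjusted p = 0.00969 and adjusted p = 0.945 in edgeR), with 33 and 39 counts against 40 and 177. Of 20 other basic helix-loop-helix factors 11 were in the table, 3 higher and 8 lower, and 0 had an unadjusted p under 0.05. They ran from *Hes1* at 1.67 (standard error 0.75, 0.71 to 2.26 with 1 library left out) to *Usf1* at -0.59 (standard error 0.74). *Hes1* had 52 and 20 counts against 5 and 13. With fewer than 10 counts in BcorWT replicate 1 it could pass a filter on low values through BcorΔE9-10 alone, so its value is a description. With all libraries 0 genes of these lists or of the targets below passed adjustment in edgeR. limma-voom and DESeq2 called 0 of the highest, the lowest and those with an unadjusted p under 0.05 in each list. Without BcorWT replicate 1 the log2 fold change was -2.28 for *Lmo1*, -2.42 for *Elk1* and -1.63 for *Eng*. Without BcorWT replicate 2 it was -0.99, -0.90 and -0.53.

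Genes known as targets of these factors did not move together. Of 16 listed, 10 were in the table, 5 higher and 5 lower, and 0 passed adjustment in edgeR. Their median log2 fold change was -0.01 (-0.12 to 0.18 with 1 library left out). Over the targets with at least 10 counts in every library the median was -0.38. *Klf1*, the erythroid Krüppel-like factor, had 24 and 17 counts in BcorΔE9-10 and 1 and 4 in BcorWT, of which the first is below the 3 counts that a count of 0 allows, so no fold or p is given. *Eng*, which encodes the TGF-β co-receptor endoglin, had 182 and 183 counts against 157 and 522, which is -1.19 on the log2 scale (standard error 0.41, unadjusted p = 0.0214 and adjusted p = 0.945 in edgeR) and -0.53 without BcorWT replicate 2. *Pf4*, a platelet chemokine, had 80 and 76 counts against 80 and 160 (log2 difference -0.98, -1.15 to -0.78 with 1 library left out, standard error 0.36, unadjusted p = 0.0263 and adjusted p = 0.945 in edgeR). *Kit*, the stem cell factor receptor, was at 0.46 (standard error 0.38, from 0.086 to 0.95 with 1 library left out) with overlap between genotypes.

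**Figure D4:**
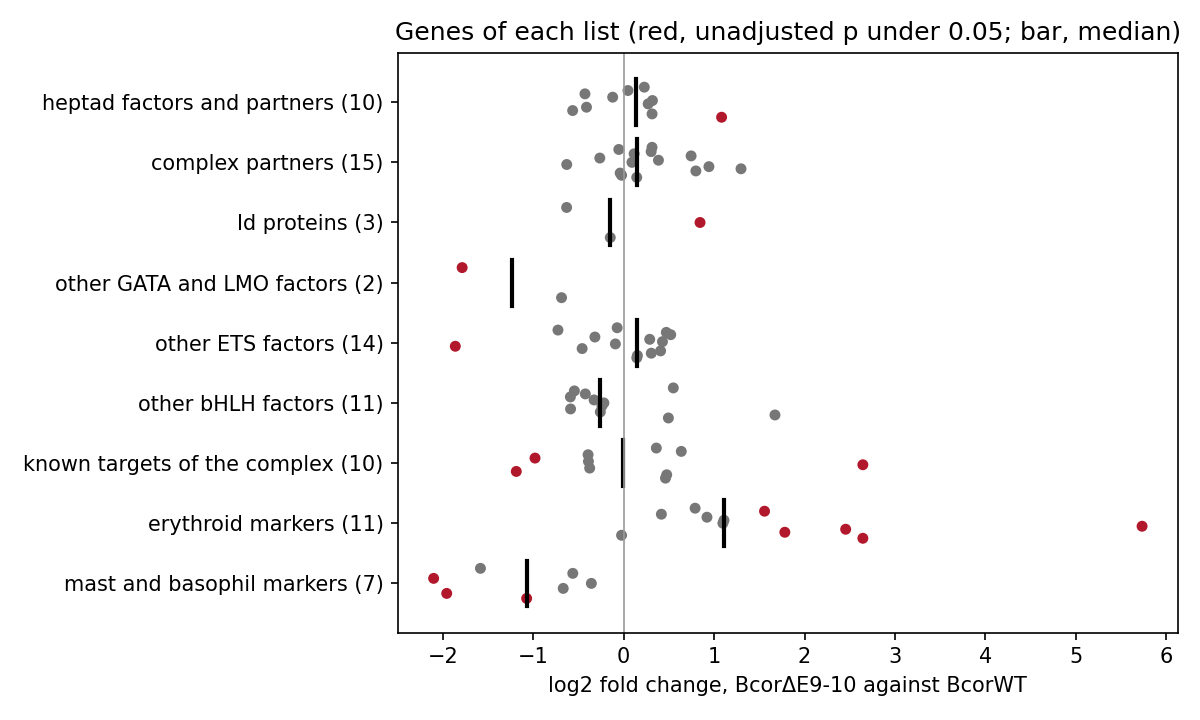
Log2 fold change of every gene in the table from each list, BcorΔE9-10 against BcorWT (points; red, unadjusted p under 0.05 in edgeR; black bars, list medians; in brackets, genes in the table). *Tal1* at 1.08 is the red point among the 10 factors, the erythroid markers have a median of 1.11 and the mast and basophil markers one of -1.07.

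*Tal1* is also expressed in erythroid progenitors, which fall within the KL gate until they gain Ter-119, and erythroid markers were higher beside it. Of 14 listed, 11 were in the table, 10 with a positive log2 fold change and a median of 1.11, which was 0.70 without BcorWT replicate 1 and 1.73 without BcorWT replicate 2. Over its genes with at least 10 counts in every library the median was 1.10. In edgeR 0 of the list passed adjustment with all libraries, beside 2 of all genes, and limma-voom called 0 of those named here. DESeq2 called *Car2* (adjusted p = 0.00467), beside 43 of all genes. Of its genes with at least 10 counts in every library, *Car1* and *Car2* had an unadjusted p under 0.05 in edgeR, beside 1.34% of all genes in that direction. The log2 fold change of *Car1* was 1.78 (standard error 0.48, edgeR unadjusted p = 0.00616 and adjusted p = 0.945). That of *Car2* was 2.45 (standard error 0.49, edgeR unadjusted p = 0.00116 and adjusted p = 0.664). With 1 library left out the log2 fold change ranged from 1.30 to 2.41 for *Car1* and from 1.87 to 3.30 for *Car2*. *Car1* and *Car2*, the carbonic anhydrases of red cells, had 141 and 124 counts against 32 and 23, and 257 and 235 counts against 40 and 23. *Klf1* (24 and 17 counts against 1 and 4), *Rhd* (37 and 47 against 0 and 1) and *Ermap* (39 and 32 against 8 and 10) had fewer than 10 counts in at least 1 BcorWT library and could pass a filter on low values through BcorΔE9-10 alone, so their counts are a description. The summed level of the list was 186.0 to 228.8 CPM in BcorΔE9-10 and 87.6 to 98.6 CPM in BcorWT, while *Epor* and *Alas2* were not in the table. Their lowest member was *Gata1*, with a log2 value of -0.02. Megakaryocyte markers, 6 of 10 in the table, were at 125.9 to 156.0 CPM and 118.0 to 287.7 CPM in sum, with overlap. Endothelial cells use most of the same factors. Of 10 endothelial markers 3 were in the table, *Pecam1* at 32.3 to 98.0 CPM, *Egfl7* at 43.4 to 128 CPM and *Flt1* at 4.73 to 8.13 CPM over the 4 libraries, and *Cdh5*, *Kdr*, *Emcn*, *Tek*, *Cldn5*, *Robo4* and *Plvap* were not. Stem cell markers, 5 of 12 in the table, summed to 34.1 to 46.9 CPM in BcorΔE9-10 and 24.3 to 49.6 CPM in BcorWT, with *Mecom*, *Procr* and *Slamf1* not in the table. *Xist*, examined after its values were seen because the recipients were female, was at 2.40 and 3.91 CPM in BcorΔE9-10 and 18.7 and 19 CPM in BcorWT. Its log2 fold change was -2.56 (standard error 0.47, unadjusted p = 0.000623 and adjusted p = 0.419 in edgeR), and -2.95 to -2.26 with 1 library left out. The part of erythroid cells in the *Tal1* values was not tested. Nor was the part of recipient cells in the values of *Tal1* or of any other gene described here.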

How the data were processed

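Per the labels and the methods, the authors removed low-quality reads, trimmed them with cutadapt, mapped them to mm10 (GRCm38) with HISAT2 and counted them per gene with featureCounts of Subread. The deposited values are unnormalized counts. In BcorΔE9-10 replicate 2 and BcorWT replicate 1 they were read as deposited expected counts, since 1 gene (*Gm4430*) was not whole, and were rounded. The filter behind the 12067 genes, and whether counting used strand, are not given in the sources used here. The methods describe the KL sort for primary mice; the labels call these libraries transplants.

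The fit was edgeR 4.0.16 (R 4.3.3) with filterByExpr, TMM scaling, a prior count of 0.125, a quasi-likelihood F test and Benjamini-Hochberg adjustment over all genes. Standard errors are the log2 fold change divided by the square root of F. The study's methods name limma, used here as limma-voom (limma 3.58.1), and DESeq2 1.42.0 was a further alternative. Fits were tested on simulated data, the outcome of which is not given here. The Poisson and Wilson intervals cover counting error only, while those of fitted log2 fold changes also hold the spread between libraries. The 10 genes and the lists were chosen with earlier results of these data known. The rule named all 10 genes, *Bcor*, *Kit*, *Mpo*, *Ly6a* and the 5 genes nearest *Tal1*. From each list it named the highest, the lowest and those with an unadjusted p under 0.05. Of marker lists other than the erythroid and the mast and basophil lists, the highest and lowest are not all printed. Of B cell markers 5 of 8 and of T cell markers 1 of 8 were in the table, summing to 24.6 to 41.8 CPM and 1.85 to 3.20 CPM. Of 8 markers of the lineage gate 4 were in the table (158.9 to 503.6 CPM, *Ly6c1* lower at an unadjusted p of 0.00794), and of 3 endothelial markers in the table the sum was 100.1 to 231.5 CPM. Positions are from GENCODE M21 (GRCm38), in which all 10 symbols were found. Figures used matplotlib 3.10.9, and shares used scipy 1.17.1.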

Additional observations from a re-analysis of the deposited data

How the results depend on the processing

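Over 120 fits of the 10 genes under alternatives, 113 kept the direction and 0 passed adjustment. The 7 that reversed all left out 1 library. With 1 library left out the log2 fold change ranged from -0.86 to 0.21 for *Gata2*, -0.051 to 0.71 for *Erg*, -0.52 to 0.19 for *Ldb1*, -0.81 to 0.071 for *Tcf3* and -0.37 to 0.61 for *Tcf4*. Of other named genes it ranged from -1.08 to 0.067 for *Id3*, -0.082 to 0.40 for *Runx1*, -1.5 to 0.98 for *Gata3*, -1.36 to 0.97 for *Usf1*, -0.80 to 0.94 for *Gata1*, -0.71 to 0.052 for *Fcer1a*, -0.49 to 0.20 for *Mpo* and -6.51 to 0.55 for *Ly6a*. The number of the 10 genes with an unadjusted p under 0.05 was 0 without either BcorΔE9-10 library, 4 without BcorWT replicate 1 (*Tal1*, *Lmo2*, *Lyl1* and *Fli1*) and 3 without BcorWT replicate 2 (*Tal1*, *Gata2* and *Tcf3*). Over all genes the matching percentages were 2.01, 3.10, 25 and 5.71%. With 1 library in a group, that library is assumed to vary like the others. With scaling by totals alone, 4 genes did not overlap between genotypes, *Lmo2* and *Fli1* beside *Tal1* and *Tcf12*.

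Over all genes 2 passed adjustment, against 5 with at least 10 counts in every library, 4 with limma-voom, 43 with DESeq2 and between 6 and 596 with 1 library left out, 596 without BcorWT replicate 1. With the replicate number as a block 14 passed, and no call among the 10 genes changed. The numbers share only a label here, as the deviations of same-numbered libraries had a correlation of -0.09. The cause of these differences was not tested. With 2 libraries per genotype, intervals of about 1 on the log2 scale to either side limit what can be seen.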

Other observations

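The genes outside the group whose log2 CPM, centred over the 4 libraries, lay closest to those of *Tal1* by Euclidean distance were *Hmgb1-rs16* (distance 0.0970), *Rps3a3* (0.0979), *Gm12020* (0.148), *Haus6* (0.149) and *Llph-ps2* (0.166). *Haus6*, a subunit of the augmin complex of the mitotic spindle, had 145 and 115 counts in BcorΔE9-10 and 47 and 51 in BcorWT. With only 4 libraries this likeness is a description and carries no test.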
